A study of Homo sapiens with 4 samples.

Results

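Caspase-3 inhibited and caspase-3 efficient tumours were compared before any drug was given, over 661 mouse loci near the starts of 11 chromosomes. Both tumours grew from cells of the human triple-negative breast cancer line MDA-MB-231, injected under the skin of Balb/c nude mice, which lack most T cells. For the inhibited, untreated tumour the culture medium of the cells had held Z-DEVD-FMK, a peptide that blocks caspase-3 irreversibly, and for the efficient, untreated tumour it had not. Each of the 2 tumours was 1 library with no replicate, and a matching pair of libraries came from tumours of mice given docetaxel, a drug that stabilizes microtubules, at 15 mg/kg once tumours reached 12 mm2 (efficient, docetaxel and inhibited, docetaxel). Inhibited and efficient name how the grafted cells were handled in culture. Caspase-3 activity in the tumours was not measured in these files.

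The loci were chosen by position: a locus belonged when it ended below a limit set for its chromosome, from 3.6 Mb on chromosome 15 to 34.6 Mb on chromosome 11 (mouse build mm9), and had the status OK in both untreated libraries. This kept 661 of the 23698 loci in the tables, and 1 further locus in these windows was left out by its status. The limits follow where loci with values were crowded in earlier work on the same tables, so the crowding is not a result here. The values are FPKM, fragments scaled to transcript length and to the mapped total, so levels of different genes are read per unit length. The crowding of values near chromosome starts leaves it unknown whether the tables hold all alignments of a library, so a value of 0 outside the windows does not show that a gene was silent, and the mapped total behind the FPKM is unknown. Each value has a deposited lower and upper bound, given below in brackets and taken as 95% bounds, which cover the counting of fragments in 1 library and not the difference between 2 animals. No p-value can be given with 1 library a group.

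Caspase-3 is the executioner protease that cleaves cellular proteins late in apoptosis. A xenograft holds human tumour cells together with mouse fibroblasts, vessels, blood and immune cells, and these tables list mouse loci only, so they read the host part of the tumour plus any human fragments that aligned to mouse sequence. In such a host stroma, fibroblasts and macrophages secrete collagens and matrix metalloproteases, which cut the matrix, and trapped red cells carry globin RNA. In bulk tissue, fewer cells of a type and less RNA per cell cannot be told apart.

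Of the 661 loci, 406 (61.4%) were above 0 in the efficient library and 401 (60.7%) in the inhibited one, while outside the windows 8.02% and 6.94% of 23036 loci were. In both libraries 367 loci had a value, 221 had none in either, 39 had one in the efficient library alone and 34 in the inhibited library alone. Of the last 3 loci inside each limit 23 of 33 were above 0 in an untreated library, against 15 of the first 3 outside each, also 33. On chromosome 19 the last locus with a value inside was Slc25a45, at 10.99 FPKM in the efficient and 12.3 in the inhibited library, and the first outside was Dpf2, at 14.01 and 17.1, so that limit does not mark an end of detection. On chromosome 11 the last inside was Dock2, at 12.8 and 11.4, and the next 3 loci were listed at 0 in both.

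**Figure D1:**
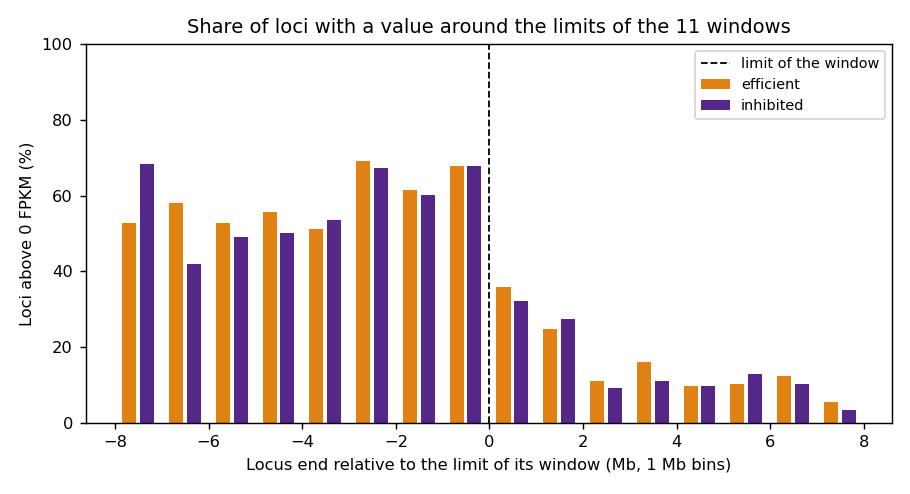
Percent of loci above 0 FPKM (vertical axis) against the distance of the locus end from the limit of its window in Mb (horizontal axis, 1 Mb bins, all 11 windows together), with bars for the efficient and the inhibited untreated library. The last bin inside the limits stands at 67.8% in both libraries and the first bin outside at 35.8% in the efficient and 32.1% in the inhibited library.

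Depth was low and similar. Where the lower bound is above 0, the width of a deposited interval, read as 2 SD either side of a Poisson count, implies a rough number of fragments. The median was 20.8 fragments a locus in the efficient library (229 compared loci, 3.7 to 508.3) and 16.2 in the inhibited library (216 loci, 2.6 to 525.2). Over 202 loci with both numbers the inhibited library was 0.891 times as deep as the efficient one. The FPKM lay above its own upper bound in 4 loci of the efficient library (Uqcr10, Cfl1, Rps20 and Shfm1) and 1 of the inhibited library (Shfm1), whose bounds are not used below. A value of 0 is called listed at 0 and no fold is given against it, because it may stand for a failed estimate.

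At this depth few of the compared loci were called different between the untreated tumours. A locus was called higher or lower when log2(FPKM + 1) differed by at least 1 (2-fold), the deposited intervals did not overlap and at least 1 library reached 5 FPKM, a minimum met by 261 loci. Of these 261, 15 were called (5.75%), 6 of them higher in the inhibited tumour (2.30%) and 9 lower (3.45%). Over every locus of the tables the same rule called 35 of 597 (5.86%), 15 higher (2.51%) and 20 lower (3.35%). Outside the windows it called 20 of 336 (5.95%), 9 higher (2.68%) and 11 lower (3.27%), so the share near the chromosome starts is that of the background. After quantile normalization of the 2 libraries the split was 9 higher and 6 lower, so which direction is the larger depends on the scaling. The median log2 difference, inhibited minus efficient, was -0.17 over the 261 loci, with quartiles of -0.64 and 0.17, and 157 (60.2%) were below 0. Across these loci Pearson's r between the libraries was 0.84 and Spearman's rho 0.79 on 261 points that share 2 libraries, a description across genes.

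**Figure D2:**
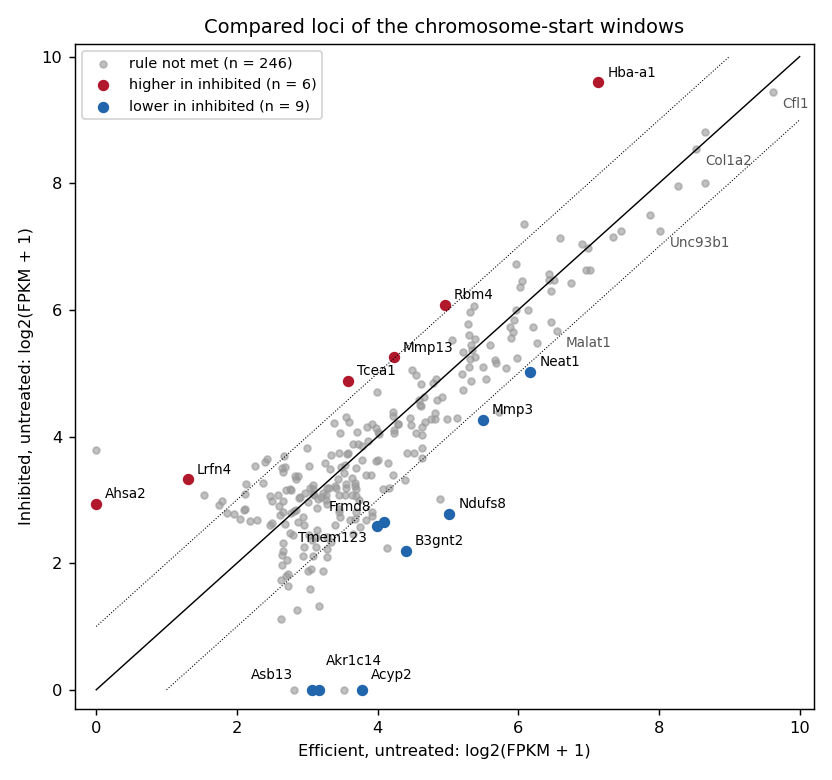
Level in the inhibited (vertical) against the efficient (horizontal) untreated library as log2(FPKM + 1) for the 261 compared loci, with 6 higher in red and 9 lower in blue. The solid line marks equal levels and the dotted lines a difference of 1. Of the red points Ahsa2, with a value of 0 in the efficient library, and Hba-a1 stand furthest above the line, and Asb13, Akr1c14 and Acyp2 lie on the horizontal axis with a value of 0 in the inhibited library.

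How far the 2 libraries differed followed the number of fragments. In 18 loci the lower bound was 0 in both libraries, so no number is implied, and their differences spread with an SD of 1.61 on the log2 scale. The 50 loci with under 10 implied fragments in the deeper library spread with an SD of 1.12, the 115 loci with 10 to 30 with an SD of 0.75, and the 78 loci with 30 or more with an SD of 0.60. Of 54 loci with at least 30 fragments in both libraries, 52 differed by less than 2-fold and 43 by less than 1.5-fold. The 2 past 2-fold were Neat1 and Rbm4, described below. By fold alone 46 of 261 loci (17.6%) were past 2-fold, 16 higher (6.13%) and 30 lower (11.5%), and in 31 of these the intervals overlapped. Over every locus 142 of 597 (23.8%) were past 2-fold, 60 higher (10.1%) and 82 lower (13.7%). By intervals alone 21 (8.05%) were apart, 7 higher (2.68%) and 14 lower (5.36%), against 48 of 597 (8.04%) over every locus, 22 higher (3.69%) and 26 lower (4.36%).

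**Figure D3:**
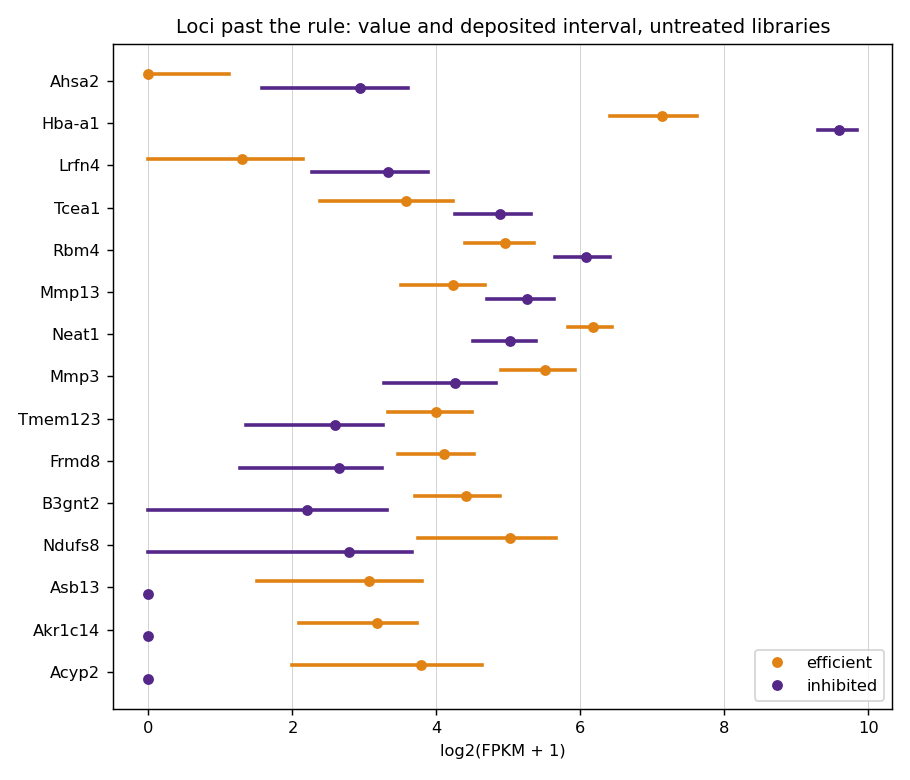
Value (point) and deposited interval (line) of the 15 called loci as log2(FPKM + 1), efficient in orange and inhibited in purple, 1 library each. By the rule no pair of lines overlaps, and the gap is narrow for several, Tcea1 and Mmp13 among them.

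Genes that remodel the matrix went both ways. Mmp3, which encodes stromelysin-1, a protease of proteoglycans and an activator of other metalloproteases (chromosome 9, 7445822 to 7455974), was at 44.3 FPKM (28.8 to 59.8) in the efficient tumour and 18.2 (8.70 to 27.3) in the inhibited one, on about 32.7 and 15.3 fragments. Mmp13, encoding collagenase-3, which cuts fibrillar collagen (chromosome 9, 7272514 to 7283333), was at 17.7 (10.4 to 24.6) and 37.1 (25.1 to 48.5). Mmp3 was thus lower by the rule and Mmp13 higher, in 1 gene cluster with Mmp12 between them. Mmp12, the macrophage elastase gene of the same cluster, was at 87.8 (71.8 to 103) and 55.2 (42.8 to 67.0), with intervals apart at a log2 difference of -0.66. Tfpi2, an inhibitor of serine proteases bound to the matrix, was at 10.7 (3.96 to 17.2) and 18.8 (8.90 to 28.2), and its intervals overlapped. Of the 14 listed matrix proteases and inhibitors 13 lay in the windows, 5 were listed at 0 in both libraries and 4 reached the minimum, with 1 higher, 1 lower and a median of 0.05, against -0.17 over all compared loci. With the minimum lowered to 1 FPKM the median over 7 members was -0.56, so the list has no settled direction. Under both scalings Mmp3 no longer met the rule, and with a pseudocount of 5 Mmp13 did not.

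No structural matrix gene met the rule, and the most abundant one was level. Col1a2, a chain of fibrillar type I collagen made by fibroblasts, was at 369 FPKM (335 to 401) in the efficient and 371 (337 to 401) in the inhibited library on 508.3 and 525.2 fragments, a log2 difference of 0.01. Col4a1 and Col4a2, the chains of basement membrane collagen, differed by less than their intervals, Col4a1 at 26.7 (21.1 to 32.2) and 27.9 (22.0 to 34.1). Igfbp3, a secreted carrier of insulin-like growth factors, was at 69.4 and 63.0. Efemp2, encoding a fibulin of elastic fibres, was at 55.9 (38.0 to 73.6) and 33.1 (18.3 to 47.8), and Cd248, the endosialin gene of stromal fibroblasts and pericytes, at 49.8 and 36.02, both with overlapping intervals. Sgce, encoding epsilon-sarcoglycan of the cell membrane, was the furthest from 0 of this list, at 7.99 and 1.5 with overlapping intervals. None of the 10 compared members of this list met the rule, 7 were below 0, and the median was -0.13.

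Alpha globin, the oxygen carrier of red cells, stood furthest apart among the loci with 30 or more implied fragments in the deeper library. The Hba-a1 entry at 32196489 to 32197303 on chromosome 11 was at 140 FPKM (83.8 to 196) in the efficient and 772 (627 to 916) in the inhibited tumour, on about 25 and 114.4 fragments. The Hba-a1 entry at 32183672 was at 67.1 (33.5 to 106) and 163 (100 to 226), and its intervals overlapped by a little. Both stood above the efficient library, and the first of them met the rule. The 2 entries are near-identical copies, and each is overlapped by an Hba-a2 entry listed at 0 in both untreated libraries, so they do not count as separate observations. How fragments were divided among these entries is not known. Hba-x and the theta globin genes Hbq1a and Hbq1b were listed at 0 in both. Of the 11 listed erythroid markers only the alpha globins lay in the windows, their summed level being 207 FPKM in the efficient and 935 in the inhibited library. How much blood each tumour held was not tested.

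Immune cell genes mostly had values a little below those of the efficient tumour, and none met the rule. Unc93b1, which carries nucleic acid-sensing Toll-like receptors to endosomes (chromosome 19, 3935186 to 3949340), was at 259 FPKM (226 to 292) in the efficient and 151 (125 to 177) in the inhibited library, on 247.4 and 133.3 fragments. Tcirg1, a proton pump subunit abundant in osteoclasts and macrophages, was at 76.1 (60.8 to 92.1) and 43.3 (30.3 to 56.4). For both the intervals were apart, at log2 differences of -0.78 and -0.80, short of 2-fold. Rela, the p65 subunit of NF-kappaB, was at 19.9 (12.5 to 27.2) and 8.92 (4.13 to 14.03), past 2-fold but with overlapping intervals. Lyn, a Src-family kinase of myeloid and B cells, was at 58.1 and 51.9, Plek, a platelet and leukocyte signalling protein gene, at 38.7 and 36.6, and Coro1b, an actin regulator of the coronin family, at 107 and 84.5. Ripk2, the kinase below the NOD receptors, went the other way at 2.35 (0 to 5.24) and 6.58 (1.18 to 11.8). Of 15 compared members 13 were below 0, where 60.2% of all compared loci were, with a median of -0.46 against -0.17. These loci share 2 libraries, so their common sign was read from 1 pair of tumours.

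Among the Cd209 genes, C-type lectins of dendritic cells and macrophages, Cd209f was at 9.89 FPKM (1.796 to 17.96) and 12.3 (4.03 to 22.2) and Cd209g at 5.64 (0 to 11.01) and 2.53 (0 to 6.18). Their intervals overlapped, and 5 of the 9 loci of that list were listed at 0 in both.

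None of the 7 compared genes on the list of caspases, apoptosis inhibitors and p53 targets differed beyond its interval. Casp1, the inflammatory caspase that matures interleukin-1 beta (chromosome 9, 5298517), was at 45.6 FPKM (27.6 to 63.2) in the efficient and 29.0 (16.3 to 41.4) in the inhibited library. Its neighbour Casp4, which senses intracellular lipopolysaccharide, was at 24.3 (12.5 to 34.8) and 23.6 (10.9 to 35.9), and Casp12 at 4.97 and 7.45. The apoptosis inhibitor genes Birc2, at 1.36 and 1.52, and Birc3, at 0.764 and 1.71, lay under the minimum. Ing1, a chromatin reader that cooperates with p53, was at 5.34 (2.12 to 9.20) and 12.0 (6.36 to 17.5), past 2-fold with overlapping intervals. Of 12 listed genes in the windows 7 were compared and 0 met the rule, with a median of 0.14. By intervals alone, without a fold threshold, 0 of the 7 were apart as well.

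Of the nuclear noncoding RNAs, Neat1 was lower in the inhibited tumour and Malat1 had a lower value with its interval apart. Neat1, the RNA scaffold of paraspeckles (chromosome 19, 5842302 to 5845478), was at 71.0 FPKM (55.8 to 85.9) in the efficient and 31.6 (21.8 to 40.8) in the inhibited library, on 89.0 and 44.2 fragments, and met the rule at a log2 difference of -1.14. Malat1, an abundant RNA of nuclear speckles (chromosome 19, 5795690 to 5802671), was at 92.8 (81.6 to 104) and 49.8 (41.6 to 58.0) on 278.5 and 148.8 fragments, with intervals well apart at -0.89. The neighbouring Frmd8, whose protein holds the iRhom and ADAM17 shedding complex at the cell surface, was also lower by the rule, at 16.1 (10.1 to 22.02) and 5.28 (1.41 to 8.48), with 5495 bases between it and Neat1. The sources used here do not say whether strand was used in counting.

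RNA-binding genes included members on the other side. Rbm4, a splicing regulator (chromosome 19, 4784293 to 4793877), was at 30.1 FPKM (20.03 to 40.1) in the efficient and 66.6 (49.3 to 83.9) in the inhibited library, on 36.1 and 59.3 fragments, and was higher by the rule. Its neighbour Rbm14, a coactivator and paraspeckle protein gene, was at 40.5 (29.1 to 51.8) and 66.1 (50.2 to 81.2), with intervals overlapping slightly. The close copy Rbm4b was at 8.57 and 10.999, and how fragments were divided between Rbm4 and Rbm4b is not known. Ewsr1, a member of the FET family of RNA-binding proteins, was at 61.6 (45.6 to 77.2) and 105 (81.1 to 128), intervals apart at a log2 difference of 0.76. Snrnp25, of the minor spliceosome, was at 28.5 (9.58 to 45.5) and 7.11 (0 to 13.4), with overlapping intervals. Of 14 compared members 9 were above 0 and 1 met the rule, with a median of 0.27 against -0.17 over all loci. Tcea1, the transcription elongation factor TFIIS (chromosome 1, 4847775 to 4887990), was higher by the rule at 28.4 (18.2 to 38.6) against 10.96 (4.22 to 17.7) in the efficient library.

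**Figure D4:**
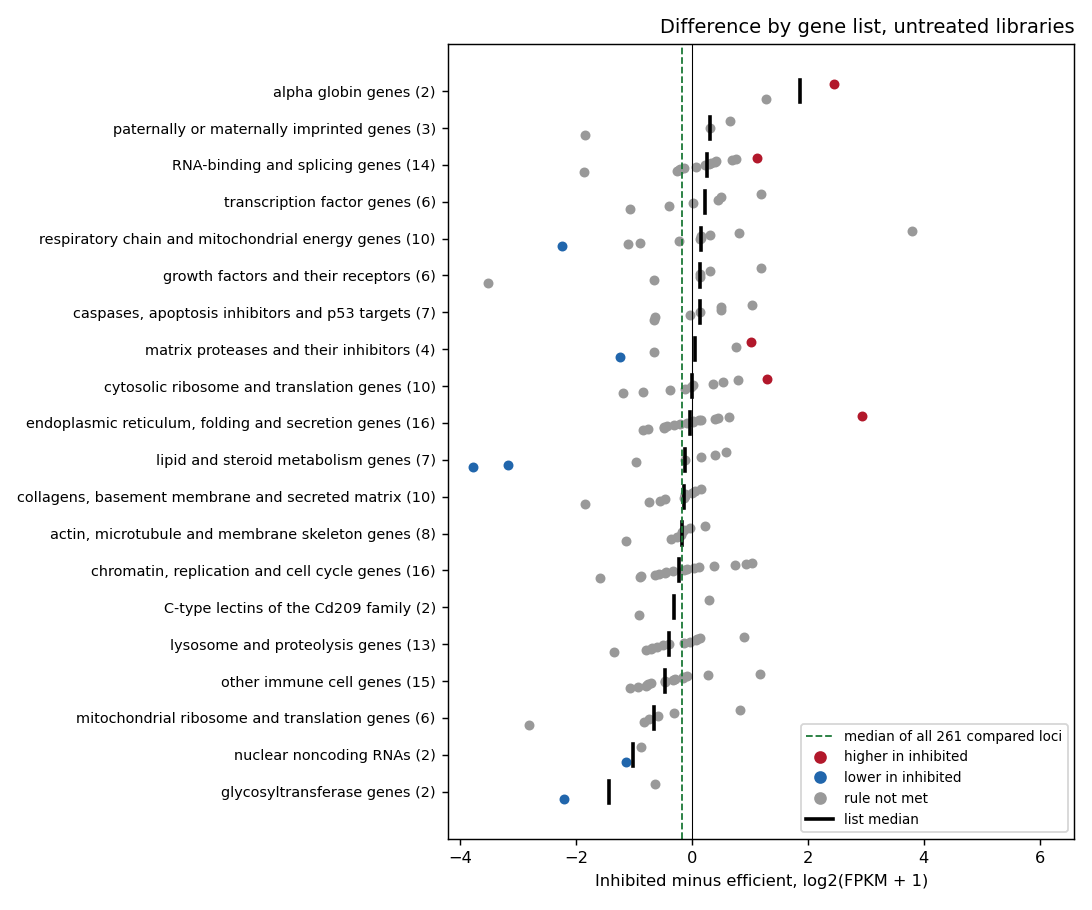
Difference of each compared member, inhibited minus efficient as log2(FPKM + 1) (horizontal axis), by gene list (vertical axis, number compared in brackets), with the list median as a black bar and the median of all 261 loci, -0.17, as a dashed line. Lists are sorted by median, from -1.42 for the 2 glycosyltransferase genes (-0.64 over 3 members at 1 FPKM or more) to 1.86 for the 2 alpha globin entries, and most lists hold values on both sides of 0.

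Of the respiratory chain, Ndufs8, a subunit of complex I that carries iron-sulfur clusters (chromosome 19, 3908870 to 3912717), was at 31.4 FPKM (12.4 to 49.6) in the efficient and 5.88 (0 to 11.6) in the inhibited library. It was lower by the rule, on about 11.4 fragments in the efficient library. Ndufv1, another subunit of complex I and no list member, was at 39.3 (24.1 to 53.2) and 42.5 (25.6 to 58.3), and Uqcr10 of complex III at 175 and 150, so neither shared this difference. Cpt1a, which admits fatty acids to mitochondria, was at 14.1 (9.26 to 18.5) and 6.002 (2.60 to 9.36), and Ogdh, of the citric acid cycle, at 15.8 (10.9 to 20.8) and 8.02 (4.52 to 11.9), both with overlapping intervals. Timm44, of the mitochondrial import motor, was at 17.7 and 19.8. Acn9 was the furthest from 0 of this list, listed at 0 in the efficient library and at 12.9 (0 to 24.4) in the inhibited one. It did not meet the rule, as its lower bound was 0. Of 10 compared energy genes 1 was lower, with a median of 0.15, which turned to -0.04 over 12 members at 1 FPKM or more. Of 6 compared genes of the mitochondrial ribosome and translation 5 were below 0 and 0 met the rule, with a median of -0.66, Mrpl21 being at 10.1 and 5.67 and Mrpl11 at 6.69 and 3.34.

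Of the lipid and steroid metabolism list, Acyp2, encoding an acylphosphatase, which is not a lipid enzyme, was at 12.8 FPKM (2.97 to 23.7) and Akr1c14, a 3-alpha-hydroxysteroid dehydrogenase, at 7.99 (3.26 to 12.2) in the efficient library. Both had a value of 0 in the inhibited library and met the rule on about 6.0 and 12.7 fragments, so their difference in level is not known. Their inhibited bounds were 0 to 0, which lie apart from any interval with a lower bound above 0. Pon2 and Pon3, encoding the lipid-protecting paraoxonases, went opposite ways, Pon2 at 16.9 and 8.14 and Pon3 at 10.1 and 15.6, with overlapping intervals. Tcn2, the carrier of vitamin B12, was at 40.7 and 45.3. Of 22 loci of this list in the windows 8 were listed at 0 in both, 7 were compared and 2, Acyp2 and Akr1c14, were lower. The median was -0.11, and 0.02 over 12 members at 1 FPKM or more.

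No hormone or growth factor gene met the rule. Sepp1, encoding the selenium carrier selenoprotein P (chromosome 15, 3220767 to 3230508), was at 401 FPKM (356 to 446) in the efficient and 255 (217 to 292) in the inhibited library, with intervals apart at a log2 difference of -0.65. The growth hormone receptor gene Ghr was at 4.30 (0 to 14.9) and 11.1 (0.563 to 22.5), and the adipocyte hormone gene Retn at 10.5 (0 to 33.6) and listed at 0. Lrp5, a Wnt coreceptor, was at 7.21 and 8.10 and the adaptor gene Grb10 at 5.30 and 6.86. Of 21 listed genes, all in the windows, 6 were compared, 4 of them above 0, with a median of 0.15.

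Genes of the endoplasmic reticulum and secretion were balanced, with 8 of 16 compared members above 0 and a median of -0.04. Ahsa2, related to an activator of the Hsp90 chaperone, was the 1 member past the rule, at 6.65 FPKM (1.97 to 11.2) in the inhibited library and listed at 0 (0 to 1.17) in the efficient one. It overlaps Usp34, a deubiquitinase gene at 15.1 and 15.8. Xbp1, the transcription factor of the unfolded protein response, was at 32.4 (19.9 to 44.3) and 44.8 (28.6 to 60.9), and the small GTPase gene Rab1 at 119 and 130. Lysosome and proteolysis genes had a median of -0.39 over 13 members, 9 below 0 and 0 past the rule. Over 15 members at 1 FPKM or more the median was -0.13. The lysosomal membrane gene Lamp1 was at 129 (101 to 154) and 98.1 (74.4 to 121). Tcirg1 and Ctsw of this list were also counted among the immune cell genes.

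Of the 10 compared genes listed for translation 5 stood on each side of 0, with a median of -0.0049. The 1 member past the rule was Tcea1, which acts in transcription. Npm1, encoding nucleophosmin of the nucleolus, was at 95.9 FPKM (69.5 to 122) and 140 (105 to 175), and the ribosomal protein gene Rps20 at 233 and 179. The most abundant locus was Cfl1, whose protein cofilin severs actin filaments, at 789 and 694, with Actr2, of the actin-nucleating Arp2/3 complex, at 89.9 and 87.8. Of 8 compared cytoskeleton genes 7 were below 0 and 0 met the rule, with a median of -0.18. Others of the 12 most abundant loci were Shfm1, of the proteasome lid and homologous recombination, at 401 and 450, the cyclophilin gene Ppia at 309 and 249, the phosphatase gene Ppp1ca at 161 and 141 and the syntenin gene Sdcbp at 126 and 125. Chromatin and cell cycle genes had a median of -0.23 over 16 members and 0 past the rule, Banf1, which links chromatin to the nuclear lamina, being at 123 and 98.5. The transcription factor list had a median of 0.23 over 6 members, with Klf6, an early response factor, at 44.2 and 33.4, and the imprinted genes 0.32 over 3 members. None of those 9 met the rule.

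The other called loci belong to no common pathway. B3gnt2, which builds poly-N-acetyllactosamine chains on glycoproteins (chromosome 11, 22734739 to 22760336), was lower at 20.2 FPKM (12.0 to 28.5) in the efficient and 3.58 (0 to 8.96) in the inhibited library. Of the same list, B3gnt1 was at 12.0 and 7.32 with overlapping intervals. Tmem123, the porimin gene of a cell surface mucin-like protein (chromosome 9, 7764077 to 7794332), was lower at 14.9 (9.02 to 21.5) and 5.03 (1.56 to 8.57), a call lost under both scalings and with a pseudocount of 5. Asb13, an adaptor of a ubiquitin ligase, was at 7.39 (1.85 to 12.9) and listed at 0 (0 to 0), with the limit given above for Acyp2. Lrfn4, a synaptic adhesion gene that lies inside the span of Pcx, was higher at 1.47 (0 to 3.41) and 9.06 (3.83 to 13.8). Pcx itself was at 2.54 and 1.71.

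Other cell types could scarcely be read in the windows. Of 20 endothelial markers 2 lay there, Sox17 at 0.680 and 3.06 FPKM and Angpt2 at 4.38 and 1.97, both under the minimum. Of 20 macrophage markers 3 did, with a summed level of 97.6 in the efficient and 67.5 in the inhibited library, most of it Mmp12, and Cd209d at 0 in both. Of 16 lymphocyte markers 3 did, summing to 31.4 and 16.7, with Ptprcap at 12.4 and 6.95 and Ikzf1 at 11.2 and 5.41. Of these 3, the other being Ctsw, all were below 0 and 0 met the rule. All 3 are also on the list of immune cell genes above, so they were counted there already. Fibroblast markers summed to 419 and 407 over 2 members. Both skeletal muscle markers in the windows were listed at 0, keratinocyte markers had none there, and of the 14 carcinoma and epithelial markers 2 did, Esrp1 at 1.63 and 0 and Ovol1 at 0. The 6 housekeeping genes there were all compared, with a median of -0.11 and 0 past the rule. The part of macrophage and lymphocyte content in the lower immune values was not tested.

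The docetaxel-treated tumours give a second pair of libraries for inhibited against efficient, with no library in common with the untreated pair. Depth was less similar in that pair. Over loci compared untreated, the median was 29.0 implied fragments in the efficient docetaxel library (243 loci) and 15.3 in the inhibited one (207 loci). In the docetaxel pair the rule called 43 of 305 loci (14.1%), 3 higher (0.984%) and 40 lower (13.1%), with a median log2 difference of -0.26. Over every locus it called 93 of 701 (13.3%), 28 higher (3.99%) and 65 lower (9.27%), so the calls of that pair lay mostly on the lower side. Of the 15 loci called untreated, 10 had the same sign under docetaxel and 5 the opposite. Over loci compared in both pairs 137 of 249 (55.0%) had the same sign. Differences near 0 were counted by sign too: Asb13 (-0.02) and Frmd8 (-0.07) among the 10 and B3gnt2 (0.03) among the 5. Acyp2, Akr1c14 and Rbm4 met the rule in both pairs with the same direction. Rbm4 was at 23.6 FPKM (15.5 to 31.1) in the efficient and 52.7 (35.8 to 69.3) in the inhibited docetaxel library, a log2 difference of 1.13 beside 1.12 untreated. Rbm14 met the rule under docetaxel, at 26.7 (18.5 to 34.4) and 63.1 (45.7 to 79.8). The other locus called higher in that pair was Igfbp3, at 66.5 and 168 FPKM, which stood at 69.4 and 63.0 untreated.

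By intervals alone, 21 of 261 loci were apart untreated (8.05%), 14 lower and 7 higher, and under docetaxel 46 of 305 were lower (15.1%) and 8 higher (2.62%). Of the 14 lower untreated, 7 were lower again: Neat1, Malat1, Unc93b1, Sepp1, Mmp12, Acyp2 and Akr1c14. Bounds of 0 to 0, held by Acyp2 in both inhibited libraries and by Akr1c14 in the untreated one, count as apart from any lower bound above 0. Neat1 was at 102 FPKM (83.3 to 117) in the efficient and 62.3 (46.1 to 78.1) in the inhibited docetaxel library, and Malat1 at 125 (112 to 137) and 81.5 (69.3 to 93.7). Unc93b1 was at 197 (172 to 222) and 124 (96.1 to 152). These 3 were thus lower in the inhibited library of each pair, at differences of -0.70, -0.61 and -0.66 under docetaxel. Mmp12 was at 210 and 94.8 and Sepp1 at 816 and 363, both lower by the full rule in that pair. Of the 7 higher untreated, Rbm4 alone was higher again.

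The remaining called loci overlapped in their intervals under docetaxel, or turned. Ndufs8 was at 66.7 FPKM in the efficient and 74.6 in the inhibited docetaxel library, B3gnt2 at 15.2 and 15.6, Frmd8 at 11.7 and 11.1, Asb13 at 5.64 and 5.53, and Mmp3 at 86.3 and 97.3. These 5 loci had overlapping intervals. Mmp13 was at 62.5 and 52.0, with its sign turned inside overlapping intervals. Tcea1, at 20.6 and 31.6, Ahsa2, at 5.87 and 14.2, Lrfn4, at 3.34 and 6.6, and Tmem123, at 21.0 and 12.3, kept their sign with overlapping intervals. Hba-a1 at 32196489 met the rule in the opposite direction, at 933 and 335. The Hba-a2 entry that overlaps it was at 364 in the efficient docetaxel library and listed at 0 in the other 3. Whether any of these differences changed between the pairs was not tested, since each condition is 1 library.

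**Figure D5:**
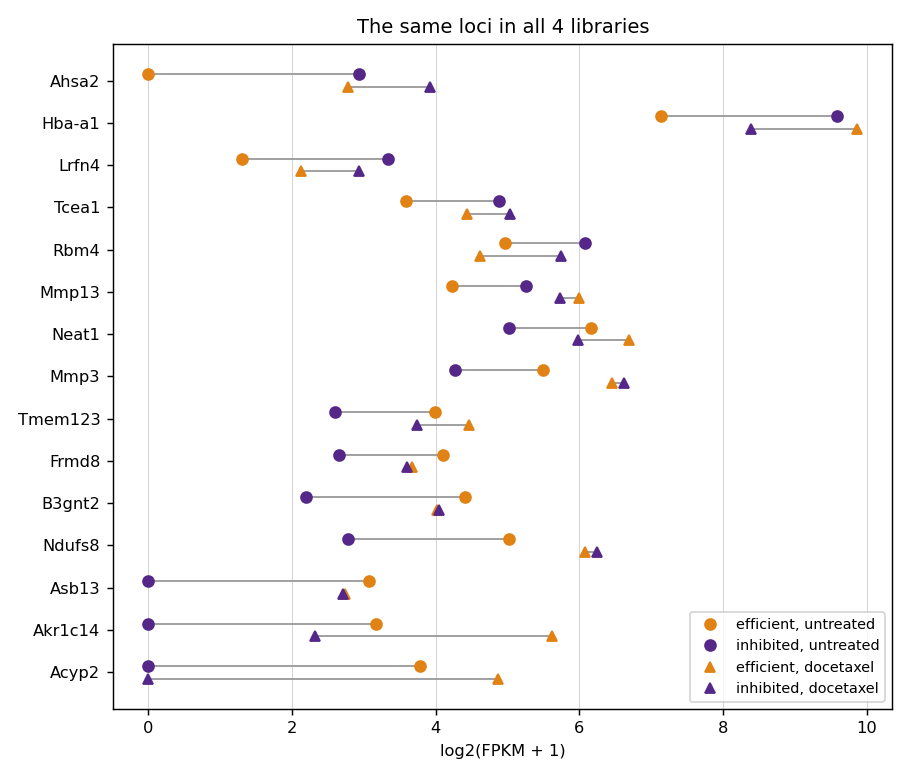
Level as log2(FPKM + 1) of the 15 called loci in all 4 libraries, circles for untreated and triangles for docetaxel, orange for efficient and purple for inhibited, each pair joined by a line. Rbm4 and Neat1 show the same order in both pairs, Hba-a1 the opposite order, and Ndufs8, B3gnt2, Frmd8 and Asb13 nearly coincide under docetaxel.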

How the data were processed

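Total RNA from 4 xenograft tumours, 1 per condition, was depleted of ribosomal RNA and read on a MiSeq instrument, per the labels' protocols. The authors used TopHat and Cufflinks with the mouse build mm9, per the submitters' processing notes, and the sources used here give no version or annotation. The deposited values are FPKM with lower and upper bounds and a status, per the file headers, and no step recorded in the labels separates human from mouse fragments. Libraries were joined by symbol and position, and start positions were raised by 1. Differences were taken as log2(FPKM + 1), which understates those of low genes.

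A locus counted as stated in the report (2-fold, intervals apart, 5 FPKM in 1 library, status OK). Members, windows, the 20 function lists and the 10 marker lists were chosen with earlier results of these data known. Named were all loci past the rule, the 12 most abundant, and up to 5 of the most abundant compared members of each list, without loci under 500 bp, short RNAs, clones and predicted genes. Ndufv1, and loci under the minimum or below the first 5 of their list, were named after their values were seen. The rule was tested on simulated Poisson counts with planted changes larger than 2-fold and no difference between animals. That test therefore does not show how often the rule calls loci that differ only between animals. Alternatives covered pseudocounts, minimum, scaling, intervals, fold, zeros, overlapping entries and windows. The reference at hand was human, so no mouse sequence was used here. Python 3.11.15, numpy 2.4.6, pandas 2.3.3 and matplotlib 3.10.9 were used.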

Additional observations from a re-analysis of the deposited data

Results flagged for a closer look

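The Hba-a1 entry at 32196489 on chromosome 11 met the rule in both pairs of libraries with opposite signs. Inhibited minus efficient, its log2 difference was 2.46 in untreated tumours and -1.47 under docetaxel. The difference between the pairs was not tested, since each condition was 1 library.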

How the results depend on the processing

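Each group was 1 library, so no replicate could be left out. No paired analysis was possible because each condition has 1 library. The counts of 6 higher and 9 lower loci stayed within 1.5 times under both pseudocounts, lower minimum values, both scalings, 1 entry per overlapping set, loci above 0 in both libraries (5 and 6) and without the chromosome 11 window (4 and 7). A minimum of 20 FPKM left 4 lower loci and windows at 90% of their length 5 lower. A 3-fold threshold left 3 higher and 5 lower. Without a fold threshold 14 were lower, without the interval criterion 16 were higher and 30 lower, and over every locus listed 15 were higher and 20 lower. Median scaling kept 13 of the 15 loci and lost Mmp3 and Tmem123, whose intervals then overlapped. Quantile normalization kept 12, lost Ndufs8, Mmp3 and Tmem123, and added the second Hba-a1 entry, Fbxw11 and Cln8, all higher. Ndufs8 was lost because its intervals overlapped, with its difference still past 2-fold. A pseudocount of 5 lost Mmp13 and Tmem123. No named locus past the rule changed sign under these settings. The median of the matrix proteases moved to -0.56 with members at 1 FPKM or more, and the cause was not tested beyond the change from 4 to 7 members. That of the 2 glycosyltransferase genes moved to -0.64 over 3. The other medians, of lists with at least 2 compared members, moved by less than the counting SD of a typical member under the 3 settings run. Several lie near 0 and changed sign within it: with members at 1 FPKM or more that of the energy genes was -0.04, of lipid genes 0.02 and of the Cd209 family 0.20, a pseudocount of 5 gave -0.01 for the matrix proteases, and median scaling gave 0.06 for translation and 0.03 for secretion genes. Depth limits all loci with few fragments: 50 of the 261 had under 10 in the deeper library and 18 had no implied number.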
